A study of Callithrix jacchus with 39 samples.

Results

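KDR (ENSCJAG00000018352) encodes the main signalling receptor for vascular endothelial growth factor (VEGF), and it is 1 of 30811 genes in a count table of common marmoset (Callithrix jacchus) cells and embryos. It was chosen by name, for its loss in 2 naive lines of embryonic stem cells (ESCs) and its levels in the inner cell mass (ICM) and epiblast. Those levels are therefore given as a description, with no test. The poly(A)+ RNA of 39 libraries was sequenced, in 13 groups of 3. Total counts ran from 38.8 to 78.7 M (mega) per ESC library and from 45.3 to 59.0 M per embryo library.

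The study concerns the conversion of primed ESCs to a naive-like state. The converted groups were DSY-c2 naive cells, titled TgON, and N40 naive cells, titled TgOFF. They are set against primed cells of the same line, titled Tg in both. Primed lines DSY127 and No.40 have no Tg in their titles. The labels do not define Tg, and they name neither medium nor passage, so what Tg, TgON and TgOFF mark and the line cannot be told apart. In order of stage, the embryo groups were the morula, ICM of 5 kinds of blastocyst (labelled early, blastocyst, expanded, hatching and hatched) and postimplantation epiblast. The labels leave it unsaid whether the 3 libraries of a group are separate cultures or embryos. The p-values then measure only how far these libraries scatter, and that scatter may be technical.

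KDR is a receptor tyrosine kinase at the cell surface. VEGFA binds it, the receptor dimerizes and phosphorylates itself, and the signal runs through phospholipase C, SRC family kinases, PI3 kinase and the MAP kinases. FLT1, its close relative, binds VEGFA with high affinity but signals weakly and acts largely as a trap, FLT4 is the receptor for VEGFC and VEGFD, and the neuropilins NRP1 and NRP2 are co-receptors. KDR is best known in endothelium, and in the mouse embryo it also marks the mesoderm that gives rise to blood and vessels.

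The labelled states were set beside marker lists. These lists were chosen with earlier results of these data known, so the counts are a description and no independent check. Of 12 naive pluripotency genes tested, 10 were higher in DSY-c2 naive than primed cells and 10 in N40, against 29.6% and 32.3% of all genes tested. Of 7 primed genes 6 were lower in DSY-c2 and 5 in N40, against 29.3% and 28.7% of all genes. In N40 the naive gene PRDM14 was called lower and the primed gene FGF2 higher. In the epiblast 10 of the 12 naive genes were lower than in the ICM, against 18.7% of all genes, and 6 of the 7 primed genes were higher, against 26.1%. Without replicate 1 of the blastocyst, expanded, hatching and hatched ICM, 11 naive genes were lower. Some libraries stood apart. DSY-c2 primed replicate 4 held 2520 CPM (counts scaled to a library size of 1e6) over 9 primitive streak genes, against 192 and 166 CPM in replicates 2 and 5. Most of that sum was CER1, a secreted inhibitor made in endoderm and mesendoderm, with 1992 CPM, beside 251 CPM of PDGFRA and 93.2 CPM of TBXT. In the ICM, replicate 1 of the 4 later stages held most of the KDR counts, and N40 naive replicate 1 held most of those in naive cells. List counts that change without these libraries are given with and without them, as are KDR's naive falls and its rise over the ICM.

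KDR was nearly lost in both naive lines. DSY-c2 naive libraries held 0.192, 0.191 and 0.0576 CPM, against 46.6, 76.1 and 46.4 CPM in DSY-c2 primed replicates 2, 4 and 5. The N40 naive libraries held 1.10, 0 and 0.0552 CPM, against 82.3, 63.4 and 189.5 CPM in N40 primed libraries. No naive library reached the lowest primed library of its line. In RNA from whole cultures, fewer KDR-expressing cells and less KDR RNA per cell cannot be told apart.

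The 6 naive libraries together held 110 KDR counts, and the 12 primed libraries 67179. Of those 110, 78 were in N40 naive replicate 1, and N40 naive replicate 2 had none. A count of 0 allows up to 0.0398 CPM there, from a floor of 3 counts that covers counting error only. The mean naive level was 0.147 ± 0.0773 CPM against 56.4 ± 17.1 CPM in DSY-c2, and 0.384 ± 0.618 CPM against 111.7 ± 68.0 CPM in N40 primed cells (SD, n = 3). These are 384-fold and 291-fold lower, or 0.261% and 0.344% of the primed mean. Without DSY-c2 primed replicate 4 the DSY-c2 value was 317-fold. The N40 value was 4047-fold without naive replicate 1 and 189.8-fold without primed replicate 3, so its size depended on single libraries. The column headers of DSY-c2 primed libraries and naive replicates 1 and 2 end in L6 and L7. What L marks is not said. Among the libraries with L6 and L7 the naive values were 0.192 and 0.191 CPM, and all N40 libraries had L1 and L2.

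**Figure D1:**
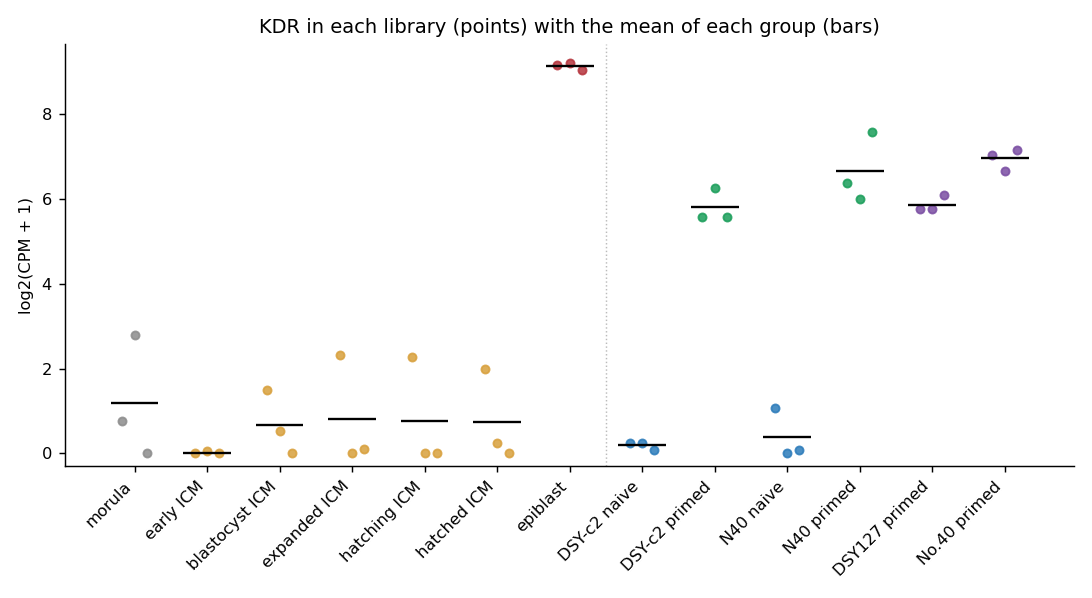
KDR in each of 39 libraries (points), as log2(CPM + 1), with the mean of each group's log values as a bar, for 7 embryo stages (left) and 6 ESC groups (right). The 3 epiblast libraries lie at 527 to 587 CPM, the 12 primed libraries at 46.4 to 189.5 CPM, and no naive library exceeds 1.10 CPM.

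Along the embryo stages KDR was low or undetected up to the hatched blastocyst and high in the epiblast. Morula libraries held 0.686, 5.99 and 0 CPM, and early blastocyst ICM 0, 0.0414 and 0 CPM. Blastocyst ICM held 1.82, 0.437 and 0 CPM, and expanded ICM 4.03, 0 and 0.0757 CPM. In each of these stages at least 1 library had no KDR count, and the early ICM held 2 counts in all. Hatching ICM held 3.87, 0 and 0 CPM, hatched ICM 2.99, 0.188 and 0 CPM, and the epiblast 569, 587 and 527 CPM. The epiblast libraries differ little among themselves, and the lowest lies far above the highest library of any earlier stage.

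The epiblast held 89218 KDR counts in 3 libraries, against 701 in the 15 ICM libraries, of which 7 had none. Mean levels were 561 ± 30.8 CPM (SD, n = 3) and 0.896 ± 1.5 CPM (SD, n = 15), a 626-fold difference. Replicate 1 of the blastocyst, expanded, hatching and hatched stages held 664 of the 701 ICM counts, at 1.82 to 4.03 CPM, while the other 11 ICM libraries held at most 0.437 CPM. Without those 4 libraries, left out after the data were seen, the epiblast was 8317-fold higher. Summed over its measured members, the primitive streak list held 579 to 1526 CPM in those 4 libraries and 157 to 1047 CPM in the other 11. Nearly all of it was PDGFRA, a receptor tyrosine kinase that is also on the primitive endoderm list, with 155 to 1523 CPM in the 15 libraries. Of the 9 streak genes 2 to 7 were at 0 in each ICM library, CER1 in all 15 and TBXT in 14. The primitive endoderm list held 1659 to 6445 CPM in the 4 and 800.1 to 4082 CPM in the 11, and the endothelial list 209 to 534 CPM and 128 to 443 CPM. The trophoblast list held 98.8 to 387 CPM in the 4 and 5.95 to 499.6 CPM in the 11. The ranges overlapped in each list, and their part in the KDR counts was not tested.

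Ordered by mean level, the epiblast came first, and the lowest epiblast library held 527 CPM, against 142 CPM in the highest library of No.40, the next group. No.40 (124.8 ± 21.1 CPM), N40 primed (111.7 ± 68.0), DSY127 (57.9 ± 8.03) and DSY-c2 primed cells (56.4 ± 17.1) followed, and each overlapped its neighbour in this order (SD, n = 3). A gap came next, to the morula at 2.23 ± 3.28 CPM. Expanded (1.37 ± 2.30 CPM), hatching (1.29 ± 2.23), hatched (1.06 ± 1.67) and blastocyst ICM (0.751 ± 0.949), N40 naive (0.384 ± 0.618) and DSY-c2 naive cells (0.147 ± 0.0773) overlapped in turn. Early blastocyst ICM had the lowest mean, at 0.0138 ± 0.0239 CPM. Its libraries held 0, 2 and 0 counts. The counts of 0, in replicates 1 and 3, allow up to 0.0663 and 0.058 CPM (3 counts), and DSY-c2 naive replicate 3 held 0.0576 CPM. The order of early blastocyst ICM against DSY-c2 naive cells was therefore not resolved at this depth. The epiblast mean was 6.395 times the mean of the 12 primed libraries (87.7 ± 45.1 CPM), from 4.495 times that of No.40 to 9.95 times that of DSY-c2 primed cells.

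The 2 primed lines without Tg in their titles allow a test, since the choice of KDR did not use the difference between them. DSY127 libraries held 53.3, 53.3 and 67.2 CPM, against 132, 101 and 142 CPM in No.40. All 3 DSY127 libraries lay below all 3 of No.40, and the mean was 0.464 times as high. In edgeR's quasi-likelihood test over all 6 ESC groups the log2 difference was -1.09 ± 0.60 (SE), with an adjusted p of 0.36, and KDR was not called, where 4.47% of genes were called (2.65% higher and 1.82% lower). An exact two-sided permutation test gave p = 0.1, the smallest that 3 against 3 libraries allow. Fitted on these 2 groups alone, KDR was called (log2 -1.10, edgeR adjusted p = 0.0207). Over all 12 alternatives the adjusted p lay between 0.0207 and 0.587 and the difference between -1.24 and -1.01. Of these libraries only No.40 replicate 1 had column headers ending in L6 and L7, and without it the difference was -1.07.

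Of the 4 other VEGF receptors and co-receptors tested, 4 were called lower in DSY-c2 naive cells and 3 in N40, and 2 in N40 without naive replicate 1. NRP1 was not called in N40, and none was higher at an unadjusted p under 0.05 by edgeR or called so by DESeq2. Of all genes tested, 58.8% were called in DSY-c2 and 29.3% lower, and 61% were called in N40 and 28.7% lower. Their median log2 change was -5.54 in DSY-c2 and -1.80 in N40, against 0.03 and 0.09 over all genes. In the epiblast all 4 were higher than in the ICM, and 3 without replicate 1 of the 4 later ICM stages, where the NRP1 call was lost. Of all genes 44.8% were called in this comparison and 26.1% higher. The 4 had a median of 4.06 against 0.2 over all genes. With DESeq2's size factors the median of all genes in this comparison was 0.437 on the log2 scale.

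FLT1 (ENSCJAG00000019447), the VEGF trap, was far lower in both naive lines. DSY-c2 naive libraries held 6.01, 5.54 and 3.03 CPM, against 265, 269 and 289 CPM in primed ones. N40 naive libraries held 4.08, 1.91 and 2.04 CPM, against 346, 329.8 and 342 CPM in primed ones. The naive and primed libraries lay far apart in both lines. The log2 change was -5.79 ± 0.28 in DSY-c2 (edgeR adjusted p = 4.55e-10) and -6.91 ± 0.30 in N40 (adjusted p = 9.8e-11).

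In the embryo FLT1 was higher in the epiblast, without reaching its primed level. It held 38.4, 42.4 and 52.1 CPM in the epiblast, and in the ICM its stage means were 8.59, 3.34, 2.84, 3.92 and 2.40 CPM in order of stage. The epiblast libraries lay above all 15 ICM libraries, of which the highest held 11.02 CPM. The rise was 3.54 ± 0.78 on the log2 scale (edgeR adjusted p = 0.00139), and 4.20 without blastocyst ICM replicate 2. FLT1 was thus lower in the epiblast than in every primed library, where it held 257 to 346 CPM, while KDR was higher. This contrast between embryo and culture was not tested.

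Within a library, the ratio of KDR to FLT1 counts shows the same turn. The ratio depends on the lengths of both transcripts, so it is compared only across libraries. It was 14.8, 13.9 and 10.1 in the epiblast and 0.161 to 0.554 in the 12 primed libraries, with a median of 0.232. The 6 naive libraries had 0 to 0.269, and the 15 ICM libraries 0 to 7.26. The epiblast values lay above every other library, and the highest ICM ratio, in hatched replicate 1, rests on 138 KDR and 19 FLT1 counts.

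**Figure D2:**
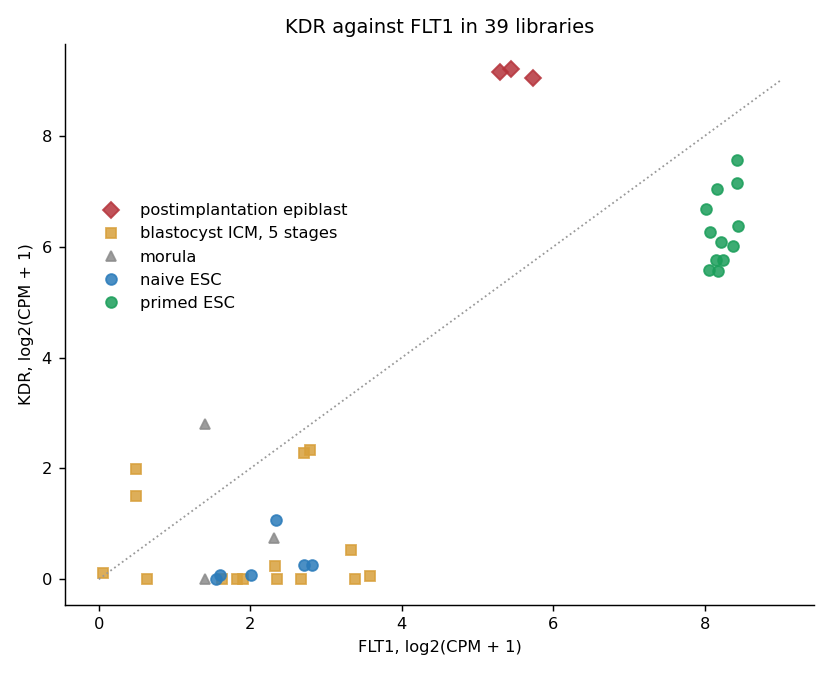
KDR (y axis) against FLT1 (x axis) in 39 libraries, both as log2(CPM + 1), with groups by colour and shape and a dotted line at equal values. Primed libraries lie below the line at high FLT1, the 3 epiblast libraries lie above it at 38.4 to 52.1 CPM of FLT1, and naive libraries lie near the origin with the ICM.

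FLT4, the receptor for VEGFC and VEGFD, was lower in both lines. It averaged 10.1 ± 0.142 CPM in DSY-c2 naive against 25.7 ± 4.83 CPM in primed cells (log2 -1.32, adjusted p = 0.000448) and 8.66 ± 1.99 CPM in N40 naive against 18.4 ± 6.55 CPM in primed cells (-1.01, adjusted p = 0.00331; SD, n = 3; edgeR). Epiblast libraries held 20.6, 18.8 and 10.2 CPM against at most 4.88 CPM in the ICM, a rise of 5.65 (adjusted p = 0.00422) that was 7.13 without blastocyst ICM replicate 3. All 6 naive libraries held at least 6.48 CPM of FLT4.

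NRP2 held 1.02, 1.24 and 0.605 CPM in DSY-c2 naive libraries, against 20.3, 246 and 18.5 CPM in primed replicates 2, 4 and 5. The log2 change was -6.61 (edgeR adjusted p = 0.000286), and -4.33 without replicate 4. In N40, NRP2 held 2.53, 1.03 and 1.41 CPM in naive and 10.1, 10.3 and 10.9 CPM in primed libraries, without overlap. That fall (log2 -2.58, adjusted p = 0.0387) was not called without any one of the 6 N40 libraries, with adjusted p between 0.0517 and 0.102. The range over all its alternatives was 0.000138 to 0.102. In the epiblast NRP2 averaged 39.03 ± 4.01 CPM (SD, n = 3) against 5.07 ± 5.95 CPM in the ICM (SD, n = 15; log2 3.79, adjusted p = 0.00802, and 4.39 without blastocyst ICM replicate 2).

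NRP1, a co-receptor, was lower in DSY-c2 naive cells and was not called in N40. In DSY-c2 it held 0.288, 0.350 and 0.504 CPM in naive libraries and 8.39, 34.7 and 3.11 CPM in primed replicates 2, 4 and 5, a log2 change of -5.29 (edgeR adjusted p = 0.00115), or -3.89 without replicate 4. In N40 it was low on both sides, at 0.984, 0.214 and 0.290 CPM in naive and 0.252, 0.104 and 0.0542 CPM in primed libraries (log2 1.91, adjusted p = 0.181, and 0.84 without naive replicate 1). The difference between the lines was tested itself, at -7.20 (edgeR adjusted p = 0.00924; 15.1% of genes were called and 8.57% with a negative difference), and it was -5.69 without DSY-c2 primed replicate 4, -6.16 without N40 naive replicate 1 and -7.96 without N40 primed replicate 1. In the epiblast NRP1 held 2.88, 5.07 and 1.68 CPM, overlapping the ICM range of 0 to 4.34 CPM. That rise (4.33, adjusted p = 0.0449) lost its call in 12 of 25 alternatives, among them without any single epiblast library (adjusted p of 0.0634 to 0.122). The others were early replicate 2 or 3, any expanded library, hatching replicate 1 or 3, hatched replicate 3, and all 4 later replicates 1, at 0.0524 to 0.0653. Over all alternatives the adjusted p ran from 0.00817 to 0.122. The rise was 6.24 without blastocyst ICM replicate 2 and 4.99 without early replicate 1.

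**Figure D3:**
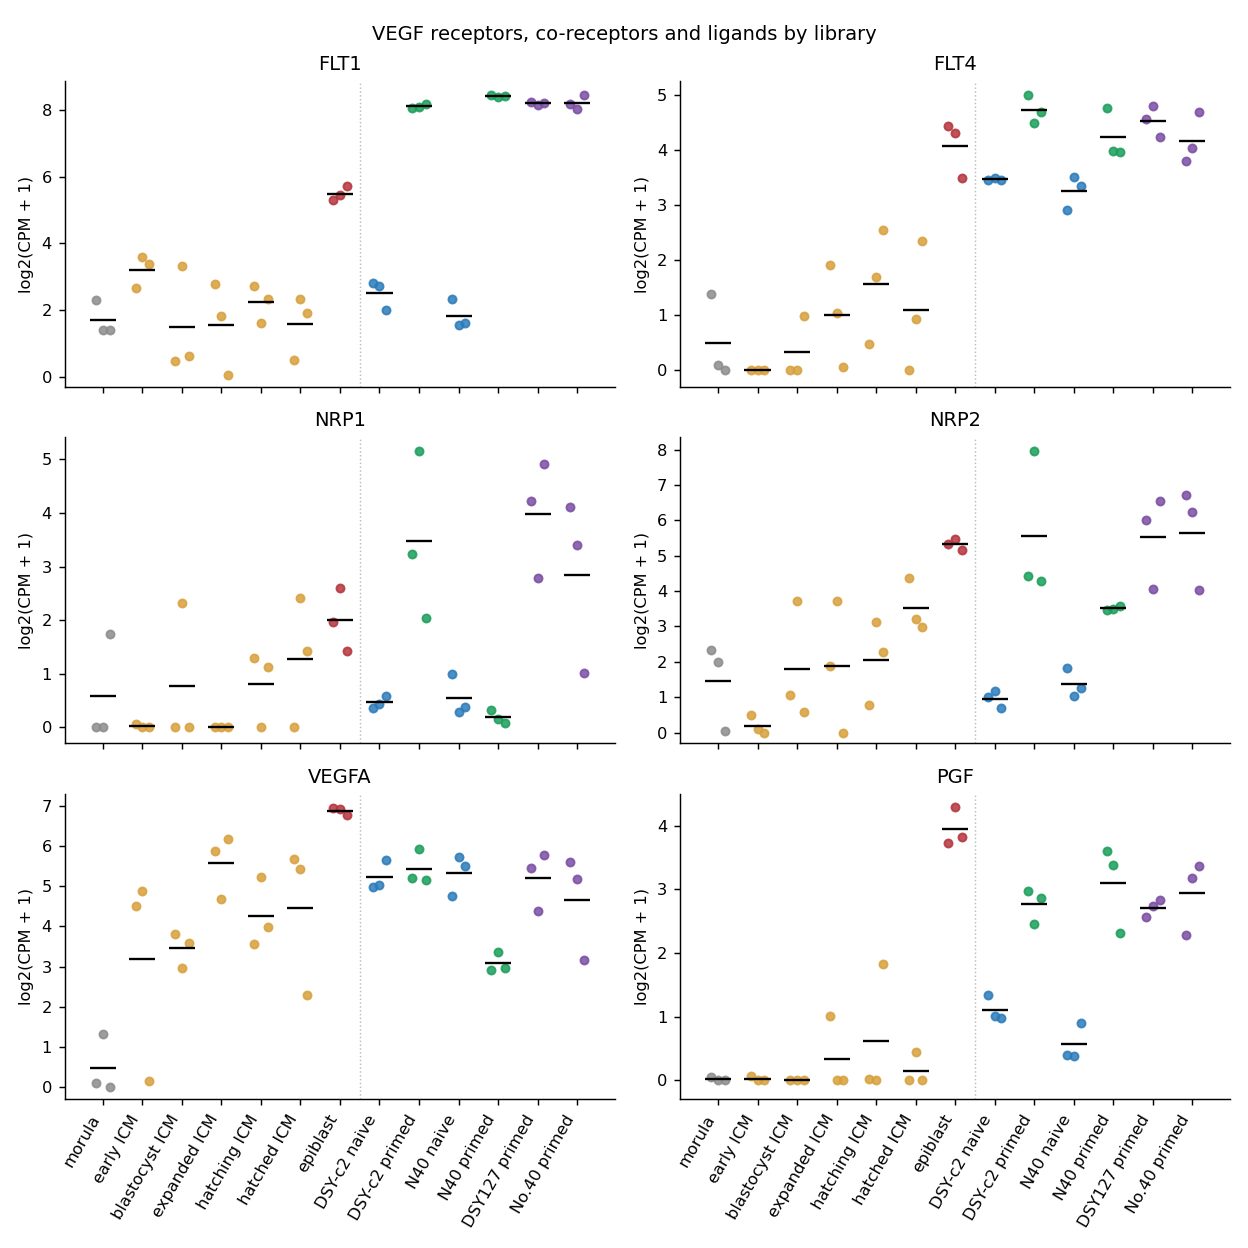
FLT1, FLT4, NRP1, NRP2, VEGFA and PGF in each of 39 libraries (points), as log2(CPM + 1), with the mean of each group's log values as a bar and the groups along the x axis. FLT1 stands at 257 to 346 CPM in the 12 primed libraries and at most 6.01 CPM in the 6 naive ones, and NRP1 is low in both N40 groups.

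The ligands are the secreted proteins that bind these receptors. Of 4 tested in the ESCs, 1 was higher and 1 lower in naive cells of each line, and of 3 tested in the embryo 2 were higher in the epiblast. Over all genes the shares higher and lower were 29.6% and 29.3% in DSY-c2 and 32.3% and 28.7% in N40. In the epiblast 26.1% of all genes were higher. Without N40 naive replicate 1, 2 ligands were lower in N40. Without replicate 1 of the 4 later ICM stages, 1 was higher in the epiblast. PGF, a ligand of FLT1 that does not bind KDR, fell in both lines. It averaged 1.17 ± 0.315 CPM in DSY-c2 naive and 5.87 ± 1.22 CPM in primed cells (log2 -2.29, adjusted p = 0.000291). In N40 it averaged 0.500 ± 0.32 CPM in naive and 8.17 ± 3.74 CPM in primed cells (-3.95, adjusted p = 2.18e-06, and -4.60 without naive replicate 3; SD, n = 3; edgeR). Epiblast libraries held 12.3, 18.6 and 13.1 CPM of PGF, against 0 in 10 of 15 ICM libraries and at most 2.54 CPM in the others.

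VEGFA, the main ligand of KDR, held 30.5, 31.7 and 49.04 CPM in DSY-c2 naive libraries, against 36.0, 59.4 and 34.7 CPM in primed replicates 2, 4 and 5. These overlap, and VEGFA was not called there (log2 -0.19, edgeR adjusted p = 0.767). In N40 it held 26.0, 51.8 and 44.2 CPM in naive libraries, against 6.60, 9.23 and 6.80 CPM in primed ones, a rise of 2.51 ± 0.54 (adjusted p = 0.000982). VEGFA was thus higher in naive cells of the line in which it started low, while KDR was near 0 in naive cells of both.

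In the epiblast VEGFA held 123, 119.8 and 107.5 CPM, against 0.121 to 70.8 CPM in the ICM, without overlap. This rise (log2 2.35, edgeR adjusted p = 0.0343) lost its call in 6 of 25 alternatives. These were any single epiblast library, expanded replicate 1, hatching replicate 1, and replicate 1 of the 4 later stages together, at adjusted p of 0.051 to 0.0801. Over all alternatives the adjusted p ran from 0.0126 to 0.0801. VEGFB, a ligand of FLT1, averaged 30.9 ± 5.48 CPM in DSY-c2 naive and 23.1 ± 2.95 CPM in primed cells (SD, n = 3), with overlap. Its rise there (0.45, adjusted p = 0.0271) lost its call without primed replicate 2 or 5 or naive replicate 1 or 3, and in 3 other settings, at 0.0557 to 0.181. Over all alternatives its adjusted p ran from 0.0203 to 0.181. VEGFD held at most 0.395 CPM in any library, and VEGFC matched no symbol.

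Downstream of the receptor, the signalling list did not move in one direction. Of 19 genes tested, 5 were higher and 8 lower in DSY-c2 naive cells, and 5 higher and 7 lower in N40 (3 higher without naive replicate 1), with medians of 0.01 and -0.09. Of all genes tested, 29.6% were higher and 29.3% lower in DSY-c2, and 32.3% higher and 28.7% lower in N40. Their medians were 0.03 and 0.09. In the epiblast 9 of 19 were higher and none lower (2 at an unadjusted p under 0.05, none by DESeq2), against 26.1% and 18.7% of all genes. Without replicate 1 of the 4 later ICM stages 10 were higher. The median was 0.69, against 0.2 over all genes. The list names genes downstream of many receptors.

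FYN and SRC, SRC family kinases, fell in both naive lines and were higher in the epiblast. FYN averaged 2.47 ± 0.195 CPM in DSY-c2 naive and 37.2 ± 8.11 CPM in primed cells (log2 -3.87, adjusted p = 2.02e-10), and 7.67 ± 1.22 CPM in N40 naive and 57.5 ± 6.17 CPM in primed cells (-2.83, adjusted p = 1.45e-09; SD, n = 3; edgeR). In the epiblast it averaged 48.7 ± 11.6 CPM (SD, n = 3), against 2.57 ± 2.86 CPM in the ICM (SD, n = 15; log2 4.49, adjusted p = 0.00146, and 5.24 without early ICM replicate 3). SRC changed by -1.84 in DSY-c2, -1.41 in N40 and 4.22 in the epiblast (edgeR adjusted p = 1.82e-06, 2.18e-05 and 0.00153). The epiblast value was 5.07 without early ICM replicate 1 and 4.83 without hatching ICM replicate 3.

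PRKCB, a protein kinase C that the VEGF receptor can activate, averaged 0.922 ± 0.135 CPM in DSY-c2 naive and 11.97 ± 6.43 CPM in primed cells, and 0.391 ± 0.156 CPM in N40 naive and 8.52 ± 4.36 CPM in primed cells (SD, n = 3). These are log2 changes of -3.66 and -4.36 (edgeR adjusted p = 2.77e-06 and 5.73e-07). The focal adhesion adaptor PXN changed by -0.64 and -1.05 (adjusted p = 0.00456 and 6.36e-05). PIK3R1, a regulatory subunit of PI3 kinase, went the other way. It averaged 27.5 ± 2.17 CPM in DSY-c2 naive and 7.88 ± 4.94 CPM in primed cells, and 20.7 ± 2.33 CPM in N40 naive and 1.44 ± 0.0918 CPM in primed cells. Its log2 changes were 1.84 and 3.92 (edgeR adjusted p = 0.00188 and 3.47e-06), and 2.46 in DSY-c2 without primed replicate 4.

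Genes that limit the receptor or carry it into the cell were tested as a list of 9. In DSY-c2 naive cells 4 were higher and none lower (also none at an unadjusted p under 0.05 or by DESeq2). In N40 4 were higher (3 without naive replicate 1) and 2 lower. Over all genes the shares higher and lower were 29.6% and 29.3% in DSY-c2 and 32.3% and 28.7% in N40. PTPN1, a tyrosine phosphatase, held 111, 107 and 123 CPM in DSY-c2 naive libraries, against 57.2, 53.2 and 54.7 CPM in primed ones. In N40 it held 106, 110.4 and 114.5 CPM in naive libraries, against 56.3, 63.6 and 68.2 CPM in primed ones. Naive and primed libraries did not overlap in either line (log2 1.08 and 0.89, edgeR adjusted p = 1.49e-08 and 8.2e-08). HSPG2, the heparan sulphate proteoglycan perlecan, was also higher (1.26 and 0.81, adjusted p = 3.65e-05 and 0.00161). GRB10, an adaptor of receptor kinases, was lower in N40 naive cells (-0.82, adjusted p = 0.000328) and was not called in DSY-c2 (0.14, adjusted p = 0.485). In the epiblast 1 of the 9 was higher and 1 lower, GRB10 being the higher one (1.24, edgeR adjusted p = 0.000875). Of all genes 26.1% were higher there and 18.7% lower. Without replicate 1 of the 4 later ICM stages 2 of the list were higher and none lower.

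KDR is a marker of endothelium, so endothelial genes were examined beside it. Of 11 tested, 2 were higher and 6 lower in DSY-c2 naive cells, against 29.6% and 29.3% of all genes. In N40, 4 were higher (3 without naive replicate 1) and 4 lower, against 32.3% and 28.7%. Their summed level was 1038 to 1164 CPM in DSY-c2 naive and 1332 to 1393 CPM in N40 naive libraries, against 199 to 495.5 CPM in the primed libraries of these lines. PECAM1, an adhesion molecule of endothelium, made up most of this sum. It held 987.6, 1116 and 1007 CPM in DSY-c2 naive libraries, against 139.7, 305 and 157 CPM in primed ones (log2 2.40, edgeR adjusted p = 9.58e-06). In N40 it held 1264, 1328 and 1332 CPM in naive libraries, against 160.1, 234 and 220.4 CPM in primed ones (log2 2.75, adjusted p = 2.27e-06). PECAM1 and KDR thus moved in opposite directions between the states.

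The angiopoietin receptor TEK and the von Willebrand factor gene VWF fell with KDR in both lines, as did CLDN5 and ROBO4. CDH5, MMRN2, PECAM1 and TIE1 were called higher in N40 naive cells (MMRN2 not without naive replicate 1). In DSY-c2, MMRN2 and PECAM1 were called higher, and CDH5 and TIE1 were not called. TEK averaged 0.22 ± 0.172 CPM in DSY-c2 naive and 7.86 ± 6.21 CPM in primed cells, and 0.256 ± 0.267 CPM in N40 naive and 2.33 ± 0.458 CPM in primed cells (log2 -5.13 and -3.10, edgeR adjusted p = 2.74e-05 and 0.00118). VWF changed by -2.11 and -3.24 (adjusted p = 0.00221 and 0.000103). ESAM, an endothelial adhesion molecule, fell in DSY-c2 (-6.23, adjusted p = 0.000199, and -5.19 without primed replicate 4) and was not called in N40 (-0.77, adjusted p = 0.485). In the epiblast 6 of 10 tested were higher and 1, CDH5, was lower, against 26.1% and 18.7% of all genes. Without replicate 1 of the 4 later ICM stages 5 were higher in the epiblast. TEK averaged 54.7 ± 13.6 CPM there against 5.44 ± 5.86 CPM in the ICM (3.71, adjusted p = 0.00946, and 5.33 without early ICM replicate 3), and PECAM1 was not called (-0.13, adjusted p = 0.775). Summed endothelial levels were 414 to 433 CPM in the epiblast and 128 to 534 CPM in the ICM, and their part in the KDR level was not tested.

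Transcription factors of the blood and vessel programme were also mixed, with 2 higher and 2 lower of 10 in DSY-c2 naive cells and 4 higher and 2 lower in N40. Over all genes the shares higher and lower were 29.6% and 29.3% in DSY-c2 and 32.3% and 28.7% in N40. Without DSY-c2 primed replicate 4, 1 was lower in DSY-c2, and the HHEX call was lost (log2 -2.09, edgeR adjusted p = 0.0634). EPAS1, a hypoxia-inducible factor known to act in endothelium, was higher in both (log2 3.24 and 4.04, edgeR adjusted p = 0.00599 and 0.00191, and 3.01 in N40 without naive replicate 1). HIF1A, its relative, was lower in both (-0.62 and -0.71, adjusted p = 0.000276 and 7.08e-05). In the epiblast 6 of 9 were higher and none lower (1 at an unadjusted p under 0.05 and 1 by DESeq2). The shares of all genes there were 26.1% and 18.7%. EPAS1 averaged 638 ± 4.78 CPM there, against 59.0 ± 50.5 CPM in the ICM, and HIF1A 539 ± 29.0 CPM against 125 ± 59.6 CPM (SD, n = 3 and n = 15). These are log2 rises of 3.52 and 2.13 (adjusted p = 0.00013 and 1.93e-05).

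In the embryo KDR marks early mesoderm, so primitive streak genes were set beside it as well. Of 8 tested, 6 were lower and 1 higher in DSY-c2 naive cells, against 29.3% and 29.6% of all genes. Without primed replicate 4, 4 were lower, and the calls of EOMES (log2 -2.72, edgeR adjusted p = 0.113) and PDGFRA (-0.84, adjusted p = 0.438) were lost. The PDGFRA call was also lost without any 1 of the 3 naive libraries. DESeq2 called 4 lower. In N40, 1 was higher and none lower, though 1 was lower at an unadjusted p under 0.05 and 1 by DESeq2. Over all genes 32.3% were higher and 28.7% lower in N40. TBXT, the streak gene brachyury, held 1.04, 0.462 and 0.216 CPM in DSY-c2 naive libraries, against 32.9, 93.2 and 37.0 CPM in primed replicates 2, 4 and 5. The log2 change was -6.55 (edgeR adjusted p = 4.61e-05), with -5.92 without primed replicate 4 and -7.32 without naive replicate 1. In N40 it held 1.43, 0.748 and 0.773 CPM in naive libraries, against 2.44, 3.78 and 4.81 CPM in primed ones, and missed the threshold (log2 -1.82, edgeR adjusted p = 0.0647).

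The summed streak list held 20.1 to 51.2 CPM in N40 naive and 17.01 to 29.4 CPM in N40 primed libraries, which overlap, while KDR differed 291-fold between them. In DSY-c2 it held 11.1 to 16.1 CPM in naive and 166 to 2520 CPM in primed libraries. Among DSY-c2 primed libraries, replicate 4 held the highest streak sum and the highest KDR (76.1 CPM). In N40 primed cells KDR was highest in replicate 3 (189.5 CPM), whose TBXT was also the highest of the 3, at 4.81 CPM. In No.40 and DSY127 the highest streak sum and the highest KDR were in different libraries. No.40 replicate 1 held 1389 CPM of streak genes and 131.6 CPM of KDR, and replicate 3 held 41.9 and 141.7 CPM. DSY127 replicate 1 held 426 and 53.3 CPM, and replicate 3 held 228 and 67.2 CPM. In the epiblast TBXT held 15.9, 16.2 and 9.21 CPM, against 0 in 14 of 15 ICM libraries and 1.37 CPM in hatched replicate 2. There 6 of 8 streak genes were higher and none lower (1 at an unadjusted p under 0.05, none by DESeq2). Of all genes 26.1% were higher and 18.7% lower. Without replicate 1 of the 4 later ICM stages 5 streak genes were higher. The part of streak genes in KDR levels was not tested.

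Other receptor tyrosine kinases were examined as a list of 15. In DSY-c2 naive cells 9 were lower (8 without primed replicate 4) and 2 higher, against 29.3% and 29.6% of all genes. In N40 8 were lower and 3 higher, against 28.7% and 32.3%. The medians were -2.74 and -1.23, against 0.03 and 0.09 over all genes. In the epiblast 11 were higher and none lower (1 at an unadjusted p under 0.05, none by DESeq2), against 26.1% and 18.7% of all genes. Without replicate 1 of the 4 later ICM stages 10 were higher. The median was 3.15, against 0.2 over all genes. PDGFRB, a receptor of platelet-derived growth factor, is the clearest example. It held 0.944, 0.701 and 1.71 CPM in DSY-c2 naive libraries, against 30.5, 34.6 and 45.1 CPM in primed ones. In N40 it held 1.80, 1.27 and 1.16 CPM in naive libraries, against 81.5, 134 and 117 CPM in primed ones. The log2 changes were -4.99 and -6.22 (edgeR adjusted p = 1.07e-08 and 1.26e-09). The epiblast held 90.9, 84.9 and 69.3 CPM of PDGFRB, while 13 of 15 ICM libraries had no count and the others at most 0.0405 CPM.

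INSR and IGF1R, the insulin and insulin-like growth factor receptors, fell in both lines. INSR changed by -2.74 and -3.30 (edgeR adjusted p = 1.85e-09 and 2.31e-10) and IGF1R by -2.91 and -2.73 (adjusted p = 3.05e-08 and 4.77e-08). In the epiblast INSR averaged 185 ± 14.4 CPM against 3.27 ± 2.99 CPM in the ICM (SD, n = 3 and n = 15; log2 5.86, adjusted p = 5.49e-05, and 6.54 without early ICM replicate 2). MET, the hepatocyte growth factor receptor, changed by -3.33 in DSY-c2 and by -6.15 in N40 (adjusted p = 7.24e-05 and 9.45e-07, and -7.56 in N40 without naive replicate 1).

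On one side of KDR in the assembly calJac240_pri, the first counted gene is KIT, the stem cell factor receptor, and PDGFRA, another receptor of platelet-derived growth factor, follows it. KIT went against KDR in the ESCs. It held 28.4, 27.0 and 67.4 CPM in DSY-c2 naive libraries, against 25.7, 16.9 and 18.5 CPM in primed ones (log2 1.04, edgeR adjusted p = 0.00924). In N40 it held 22.3, 31.8 and 29.8 CPM in naive libraries, against 11.03, 8.16 and 5.50 CPM in primed ones (log2 1.84, adjusted p = 0.000114). In the epiblast it held 36.0, 48.1 and 54.6 CPM and averaged 5.71 ± 5.08 CPM in the ICM (log2 3.15, adjusted p = 0.00843). PDGFRA was lower in DSY-c2 naive cells (-3.32, adjusted p = 0.0221), at 6.99, 11.96 and 8.99 CPM against 17.5, 251 and 16.2 CPM. That call was lost without primed replicate 4 (-0.84, adjusted p = 0.438) or any single naive library (0.0511 to 0.0693). It was called neither in N40 nor in the epiblast.

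On the other side of KDR, the circadian factor CLOCK was higher in both naive lines (log2 1.37 and 1.48, edgeR adjusted p = 8.25e-09 and 2.7e-09). EXOC1, of the exocyst complex, was higher by 0.40 and 0.75 (adjusted p = 0.000652 and 1.12e-06). LNX1, a ubiquitin ligase beyond PDGFRA, was higher by 0.55 and 1.48 (adjusted p = 0.025 and 7.66e-06) and by 3.01 in the epiblast (0.000191). Its DSY-c2 call was lost without primed replicate 2 or 4, without naive replicate 1 or 3, and without a low-count filter, at 0.0503 to 0.105. NMU, GSX2 and PDCL2 held at most 0.133, 0.998 and 3.05 CPM in any library. None of the 6 neighbours tested in the ESCs was called lower in both lines by edgeR, and NMU and GSX2 were too low to be tested. Only names and order were taken from that assembly.

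**Figure D4:**
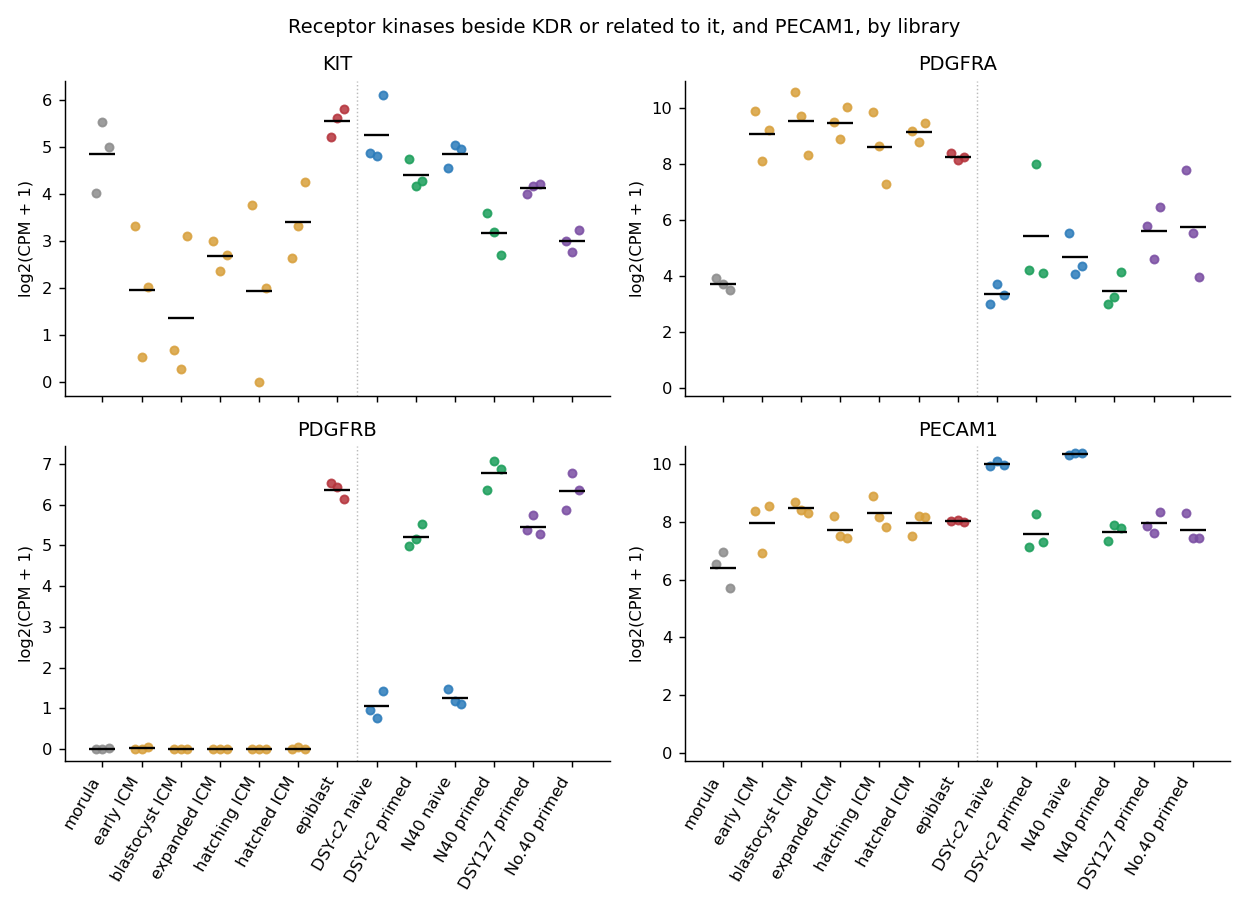
KIT, PDGFRA, PDGFRB and the endothelial gene PECAM1 in each of 39 libraries (points), as log2(CPM + 1), with the mean of each group's log values as a bar and the groups along the x axis. PDGFRB is low in the naive and ICM libraries and at 69.3 to 90.9 CPM in the epiblast, whereas PECAM1 and KIT are higher in naive than primed cells.

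Between DSY127 and No.40, edgeR called 4.47% of all genes. It called no gene of the ligand, receptor, signalling, turnover, transcription factor, endothelial or streak lists, of 66 tested. At an unadjusted p under 0.05 there were 8, and DESeq2 called 3, which were CLDN5, PRKCA and EPAS1 (named after their values were seen). FLT1 held 301, 284 and 296 CPM in DSY127 and 287, 257 and 343 CPM in No.40 (log2 0.01, adjusted p = 0.995), so the ratio of KDR to FLT1 counts was 0.177 to 0.227 in DSY127 and 0.393 to 0.459 in No.40. Of the 15 other kinases edgeR called 2, KIT (1.24, adjusted p = 0.0369) and the fibroblast growth factor receptor FGFR3 (0.69, adjusted p = 0.0141). KIT held 15.1, 16.9 and 17.4 CPM in DSY127, against 7.04, 5.76 and 8.33 CPM in No.40. The KIT call was lost without any single library of either group, at 0.0703 to 0.176, and over all alternatives its adjusted p reached 0.176. The FGFR3 call was lost without DSY127 replicate 2 (0.0936) or No.40 replicate 2 or 3 (0.0622 and 0.0715), and in 2 other settings at 0.051 and 0.146.

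Genes whose level followed that of KDR were listed by Pearson's r of mean log2 CPM over the 13 groups, among 8849 genes with a symbol and a mean of at least 10 CPM in some group. The points share the contrast of epiblast and primed cells with naive cells and ICM, which chose KDR, so r is a description. The 8 highest were WIF1 (0.983), TOX (0.983), ADAMTS8 (0.979), MAMDC2 (0.976), GTF2I (0.972), FBLN7 (0.968), KCNQ3 (0.966) and MEGF10 (0.966). WIF1, a secreted WNT inhibitor, averaged 69.8 CPM in the epiblast, 8.46 to 16.8 CPM in the primed groups, and 0.0192 and 0.12 CPM in DSY-c2 and N40 naive cells. GTF2I, a general transcription factor with near-identical copies in human, was the one with a clear level in naive cells and ICM, at 56.5 and 59.3 CPM in the naive groups. The lowest were UNC93A (-0.984), SDHB (-0.979) and PANK3 (-0.978).

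In the ICM, replicate 1 of the 4 later stages held 664 of 701 KDR counts. The same 4 libraries held 136 of 141 counts of MEGF10, 20 of 22 of KCNQ3, 2 of 2 of WIF1, 2 of 2 of TOX and 1 of 1 of FBLN7. At 2, 2 and 1 counts, WIF1, TOX and FBLN7 cannot show whether they were spread over the 4 stages, as KDR was. MEGF10 averaged 0.966 CPM in hatched ICM and at most 0.042 CPM in other ICM stages. In the ICM, KCNQ3, WIF1 and FBLN7 were counted only in the hatched stage, and TOX only in the stage labelled blastocyst. The same 4 libraries held 0 of 46 counts of MAMDC2 and 11733 of 44769 of GTF2I, and ADAMTS8 had none in any ICM library. Within the VEGF family, r over the 13 groups was 0.883 for PGF, 0.874 for NRP2, 0.864 for FLT1, 0.816 for VEGFD, 0.726 for FLT4, 0.709 for NRP1, 0.312 for VEGFA and -0.202 for VEGFB. VEGFD held at most 0.395 CPM in any library, so its r rests on few counts.

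**Figure D5:**
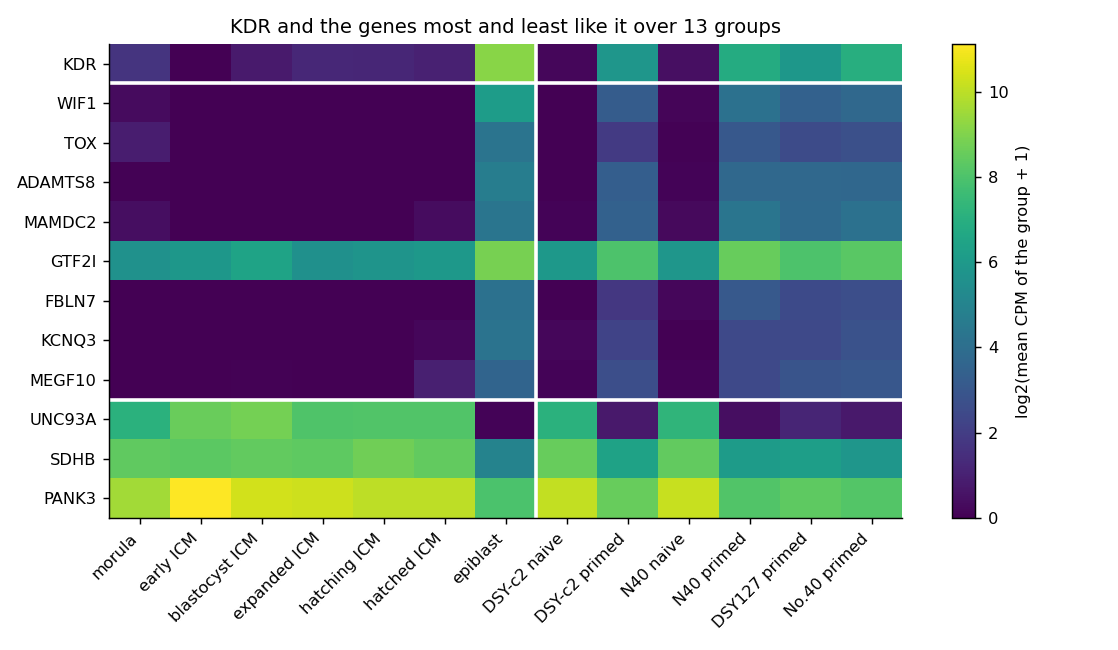
Heat map of log2(mean CPM + 1) in 13 groups (columns) for KDR, the 8 genes most like it and the 3 least like it (rows). KDR is highest in the epiblast at 561 CPM, intermediate in the 4 primed groups and near 0 in naive cells and ICM, and UNC93A shows the reverse.

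Within the 12 primed libraries the pattern was another one. The genes of highest r with KDR, over 7833 genes, were TET3 (0.909), a DNA demethylase, FLNA (0.903), an actin crosslinker, CD99L2 (0.886), PDZRN3 (0.884) and ATP6V0A1 (0.878). N40 primed replicate 3, the library of highest KDR, also held the most TET3 (111 CPM) and FLNA (740.3 CPM) of these 12. In the VEGF family r over the same libraries was 0.454 for VEGFB, 0.423 for FLT1, 0.268 for VEGFD, -0.012 for NRP2, -0.176 for PGF, -0.369 for NRP1, -0.426 for VEGFA and -0.581 for FLT4. These r values rest on 12 libraries of 4 groups and are given as a description.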

How the data were processed

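Poly(A)+ RNA of marmoset ESCs and embryos was sequenced from stranded TruSeq libraries, per the labels' protocols. Reads went through Trim Galore 0.4.0, STAR 2.5.3a and featureCounts 1.5.2, as named in the submitters' processing notes. Genome build and annotation: not given in the sources used here. What the authors deposited is a table of raw counts per Ensembl gene with 2 columns per library, summed here. Another 6 columns, of no sample of the series, were not used. Among deposited counts of 1 to 49, 65% were even, against 50.8% of those of at least 500, so mates appeared to be counted separately. Counting floors are therefore optimistic. Symbols covered 12660 of 30811 IDs (41.1%).

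Separate fits were made for ESCs and embryos with edgeR 4.0.16 (quasi-likelihood, filterByExpr, TMM, robust) in R 4.3.3, over 17957 and 16929 genes, with calls at a Benjamini-Hochberg adjusted p under 0.05. CPM used TMM over all 39 libraries. Alternatives were DESeq2 1.42.0 as the test, its size factors, no low-count filter, halved counts, fits of only the groups compared, a replicate block and leaving out each library. Code was tested on simulated data. The members, gene lists and tests were chosen with earlier results of these data known. Named genes were KDR, the VEGF ligands and receptors, up to 4 called members per list with the largest change, the genes most and least like KDR, and 4 neighbours on each side. Not every such gene is printed. No sequence is shown. Replicate numbers were taken as names, since not every same-numbered pair deviated together.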

Additional observations from a re-analysis of the deposited data

Results flagged for a closer look

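The log2 change between naive and primed cells was compared between the lines with edgeR, as DSY-c2 minus N40, and 15.1% of genes were called. Among the genes named for the VEGF pathway and beside KDR, 10 were called. Part of these genes were named for large changes, so 10 is not comparable with that share. Over whole lists, 2 of 4 receptor, 3 of 4 ligand, 14 of 19 signalling and 7 of 9 turnover genes were not called. Nor were 9 of 10 transcription factor, 9 of 11 endothelial, 7 of 8 streak and 13 of 15 kinase genes. The comparison was added after the data were seen. KDR itself was not tested in it.

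Among receptors, the difference was -7.20 for NRP1 (adjusted p = 0.00924) and 1.12 for FLT1 (adjusted p = 0.0375), which fell more in N40. The FLT1 call was lost in 10 of 17 alternatives, at adjusted p of 0.0506 to 0.0935. These were the fit of only the groups compared, no low-count filter, and the omission of DSY-c2 primed replicate 2, DSY-c2 naive replicate 1 or 2, any N40 primed library, or N40 naive replicate 2 or 3. NRP1 was -5.69 without DSY-c2 primed replicate 4, -6.16 without N40 naive replicate 1 and -7.96 without N40 primed replicate 1. The difference for the ligand VEGFA was -2.70 (adjusted p = 0.0239). It was lost without DSY-c2 primed replicate 4, DSY-c2 naive replicate 1 or 2, N40 primed replicate 1 or 3, or N40 naive replicate 2, at 0.052 to 0.0601.

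For signalling genes the difference was -1.05 for FYN (edgeR adjusted p = 0.00684) and -2.08 for PIK3R1 (adjusted p = 0.032). The PIK3R1 call was lost without any DSY-c2 naive or N40 primed library, N40 naive replicate 1 or 2, or DSY-c2 primed replicate 4, at 0.0571 to 0.0952, and the value was -1.36 without the last. GRB10 differed by 0.95 (adjusted p = 0.0102).

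ESAM differed by -5.45 (edgeR adjusted p = 0.0157, and -4.32 without DSY-c2 primed replicate 4). TBXT differed by -4.72 (adjusted p = 0.0163), with -4.01 without DSY-c2 primed replicate 4 and -5.40 without DSY-c2 naive replicate 1. MET differed by 2.82 (adjusted p = 0.0217), or 4.21 without N40 naive replicate 1. LNX1 differed by -0.94 (adjusted p = 0.0322), and this was lost in 11 of 17 alternatives at 0.0536 to 0.102. These were no low-count filter and the omission of any DSY-c2 library, N40 primed replicate 1 or 3, or N40 naive replicate 2 or 3.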

How the results depend on the processing

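Between DSY127 and No.40 edgeR called 802 genes, against 1544 with DESeq2, 430 in a fit of only the groups compared and 28 with the replicate block. Leaving out 1 library gave 368 to 1165 genes, the lowest without No.40 replicate 2 and the highest without No.40 replicate 1. The KDR difference was -1.10 with only the groups compared, where it was called, and -1.10 with the replicate block (adjusted p = 0.0589). The replicate block gave 8776 calls in N40 and 7289 in epiblast against ICM. Same-numbered libraries had r of -0.219 to 0.012 between DSY127 and No.40 and -0.092 to -0.031 in N40. Their r was -0.006 to 0.024 between epiblast and ICM, and -0.178 to 0.128 between ICM stages (2 of 30 over 0.1). Between ICM stages, libraries of different number had r of -0.216 to 0.153. Replicates 1 of the early, blastocyst, expanded and hatching ICM had r of 0.065 to 0.112 with one another. Hatched replicate 1 had -0.076 to 0.054 with these. The labels do not say whether same-numbered libraries share a source, and this was not tested. The DSY-c2 groups share too few numbers for a block. VEGFA in DSY-c2, not called, (log2 -0.19) ran from -0.46 to 0.08 when 1 library was left out, turning without primed replicate 4. Of the alternatives for other named genes, 2183 kept direction and call, 136 lost the call, 1 gained it and 1 turned. Leaving out replicate 1 of the 4 later ICM stages gave 7967 calls. Depth limits KDR in ICM and naive cells, where most libraries held few or no counts.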
